A study of Mus musculus with 16 samples.

Results

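Sphingosine-1-phosphate (S1P) is a lipid signal made from sphingosine by a pair of kinases, Sphk1 and Sphk2, and destroyed irreversibly by the lyase Sgpl1. Outside the cell it acts on a family of G-protein-coupled receptors, of which S1pr1 signals through Gi, while S1pr2 and S1pr3 also couple to other classes of G protein. In the brain the receptors are known from astrocytes, endothelium and other glia, and astrocyte S1pr1 is a known target of the drug fingolimod. The genes described here are these 6: the kinases Sphk1 and Sphk2, the receptors S1pr1, S1pr2 and S1pr3, and Sgpl1. They were taken by symbol from the 17097 genes of the deposited tables, and all 6 were measured in all 16 libraries. They were chosen by name with their difference between CNO and vehicle in astrocyte ribosome RNA already known, so the values of that comparison are given as a description, with no test.

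The study sampled the striatum of male wild-type C57BL/6J mice aged 63 days, 2 h after an injection of clozapine N-oxide (CNO, a ligand of designer receptors) at 1 mg/kg or of vehicle. From each mouse, RNA came from ribosomes pulled down by a hemagglutinin tag carried by astrocytes (IP) and from the cleared whole-tissue lysate (input). There were 4 groups of 4 libraries, with replicate numbers 2 to 5: IP after CNO, IP after vehicle, input after CNO and input after vehicle, called CNO IP and so on here. The titles carry 8 mouse codes, 4 per injection, while the design text speaks of 4 mice, and if the codes are not separate animals the p-values speak only of the spread from library to library. The title of the series names Gi signalling in striatal astrocytes. The labels name neither the receptor for CNO nor what carries the tag, and mice given CNO but lacking the receptor are not analysed here.

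IP libraries held 52.1 to 61.5 M reads assigned to genes and input libraries 32.8 to 40.3 M. The label of the IP was checked against markers: 8 of 8 astrocyte markers were higher in vehicle IP than in vehicle input (median log2 difference 2.96), and 8 of 8 endothelial (-2.71), 6 of 6 microglial (-4.10) and 8 of 9 neuronal markers (-1.55) were lower, by the limma test described below. Oligodendrocyte markers were higher in vehicle IP for 4 of 6 (0.71). The mural list was mixed: 4 of 7 markers were lower in vehicle IP and 1, Pdgfrb, was higher (median -0.86). Of all genes tested, 37.7% were higher in vehicle IP and 37.2% lower. No marker of these cell types was at 0 in any library. Between CNO and vehicle, 2 of 8 astrocyte markers were lower in IP, beside 7.08% of all genes, and 0 of 8 passed in input. There 1 of 8 endothelial markers, Cldn5, and 1 of 7 mural markers, Pdgfrb, were lower in CNO, beside 0.183% of all genes. Of the microglial, oligodendrocyte and neuronal markers 0 passed in input. In bulk RNA, fewer cells of a type and less RNA per cell cannot be told apart.

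The 6 genes lie on 6 chromosomes of GRCm38, the build named as mm10 in the submitters' notes. In the GENCODE annotation, Sphk1 lies on chromosome 11 from 116530925 to 116536674 on the plus strand, and Sphk2 on chromosome 7 from 45709467 to 45718002 on the minus strand. S1pr1 lies on chromosome 3 from 115710433 to 115715072 on the minus strand, S1pr2 on chromosome 9 from 20962361 to 20976781 on the minus strand, and S1pr3 on chromosome 13 from 51408639 to 51422797 on the plus strand. Sgpl1 lies on chromosome 10 from 61098642 to 61147703 on the minus strand. All are protein coding. Whether reads were counted by strand is not stated. Sphk2 overlaps the clock gene Dbp over 539 exon bases (13.0% of its exon length) and the ribosomal protein gene Rpl18 over 373 bases (8.97%), both on the other strand. Sphk1 overlaps an antisense model, Gm29292, over 192 bases, and S1pr3 a non-coding model, Gm32834, over 45 bases.

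The upstream sequences of the genes whose RNA differed most between CNO and vehicle IP are shown first, with a match in Sphk2 beside them. They come from RefSeq windows of 300 bases (250 before and 50 after a start site) on GRCm38.p6, which hold 5 of the 6 genes, all but S1pr1. Each window was searched on both strands for the CRE bound by CREB (TGACGTCA), for the AP-1 site (TGACTCA, or TGAGTCA on the other strand), for the CArG box bound by SRF and for the NF-kB consensus. Capitals mark the matches. The 250 bases before the start of S1pr2 (chr9:20976794-20977043, minus strand) held a CRE at position -181 from the start, and those before S1pr3 (chr13:51408368-51408617, plus strand) held no match to any of the 4. Sphk1 has 5 starts in the table, and an AP-1 match lies 50 bases before the start at 116531837, inside an exon of another Sphk1 transcript (chr11:116531776-116531805, plus strand, 30 bases shown). Sphk2 holds a CRE at position 4 after its start at 45718002 (chr7:45717981-45718010, minus strand, 30 bases shown).
S1pr2: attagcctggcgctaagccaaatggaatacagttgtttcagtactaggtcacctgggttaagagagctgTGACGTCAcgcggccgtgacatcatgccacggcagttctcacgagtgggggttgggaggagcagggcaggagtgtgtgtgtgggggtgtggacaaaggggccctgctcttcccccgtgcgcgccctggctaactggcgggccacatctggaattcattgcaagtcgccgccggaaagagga
S1pr3: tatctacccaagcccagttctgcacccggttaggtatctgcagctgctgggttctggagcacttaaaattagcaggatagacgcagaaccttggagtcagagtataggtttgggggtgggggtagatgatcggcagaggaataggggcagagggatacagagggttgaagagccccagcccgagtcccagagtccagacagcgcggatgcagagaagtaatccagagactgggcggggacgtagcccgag
Sphk1: gagcgtgtcgcTGAGTCAccttctcggaag
Sphk2: tggtgcacgggTGACGTCAcatgagcgcga

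Of all 32851 windows in the table, 1.79% held the CRE, 5.20% the AP-1 site, 1.63% the CArG box and 8.46% the NF-kB consensus. These shares are per window, not per gene, and Sphk1 had 5 windows and Sphk2 had 2. The AP-1 match of Sphk1 lies in overlapping windows, at -50 and -124 from their starts. The windows of the 5 genes held no CArG box, and the NF-kB consensus was found in Sphk1 windows only, at 2 places. These matches are descriptions of letters, not of binding. The CRE matches of S1pr2 and Sphk2 lie at unlike places. That of S1pr2 is at -181, outside any annotated exon, and that of Sphk2 is at 4, inside exons of Sphk2 and Rpl18. Any link between these matches and the CNO values was not tested.

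Levels are given as CPM, that is reads per 1 M of the library size as the authors normalized it, and differences as log2 differences of the deposited log2 CPM. Sphk1, the cytosolic kinase, was barely present in vehicle IP and, per length, near the level of Sphk2 in CNO IP. It had 29.3, 49.5, 31.2 and 41.4 CPM in CNO IP (replicates 2 to 5), against 0.507, 0.327, 0.301 and 0.644 CPM in vehicle IP. The vehicle IP values rest on 16 to 35 reads a library and the CNO IP values on 1455 to 2522. Every CNO IP library stood far above every vehicle IP library, with a log2 difference of 6.43, an 86.2-fold ratio. With limma-voom on the recovered reads the difference was 6.42. On log2(CPM + 1), where the added 1 is larger than every vehicle IP value, it was 4.72.

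The input libraries are a separate measurement in the same mice, although the genes were chosen with earlier results of these data known. Sphk1 had 4.14, 7.98, 5.83 and 8.58 CPM in CNO input, against 0.340, 0.573, 1.5 and 0.628 CPM in vehicle input. The groups did not overlap, and among the vehicle libraries replicate 4 was highest. Sphk1 was higher in CNO input by a log2 difference of 3.27 (SE 0.43, a 9.66-fold ratio, adjusted p = 0.00613, limma with Benjamini-Hochberg adjustment over all genes tested). Among the CNO mice, replicates 3 and 5 had the highest Sphk1 in both IP and input, and replicate 2 the lowest in both.

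Sphk2, the other kinase, which is found in the nucleus, mitochondria and endoplasmic reticulum, makes the same product, and its libraries lay close together. It had 34.9, 38.1, 33.7 and 36.5 CPM in CNO IP, against 34.8, 29.9, 30.8 and 34.2 CPM in vehicle IP. The IP groups overlapped, with a log2 difference of 0.14. In input it had 21.3, 25.4, 25.9 and 23.5 CPM in CNO mice, against 26.1, 26.4, 23.5 and 22.3 CPM in vehicle mice. The input groups overlapped too, and Sphk2 did not pass the test there (log2 difference -0.03, 95% interval -0.22 to 0.15, adjusted p = 0.949, limma).

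**Figure D1:**
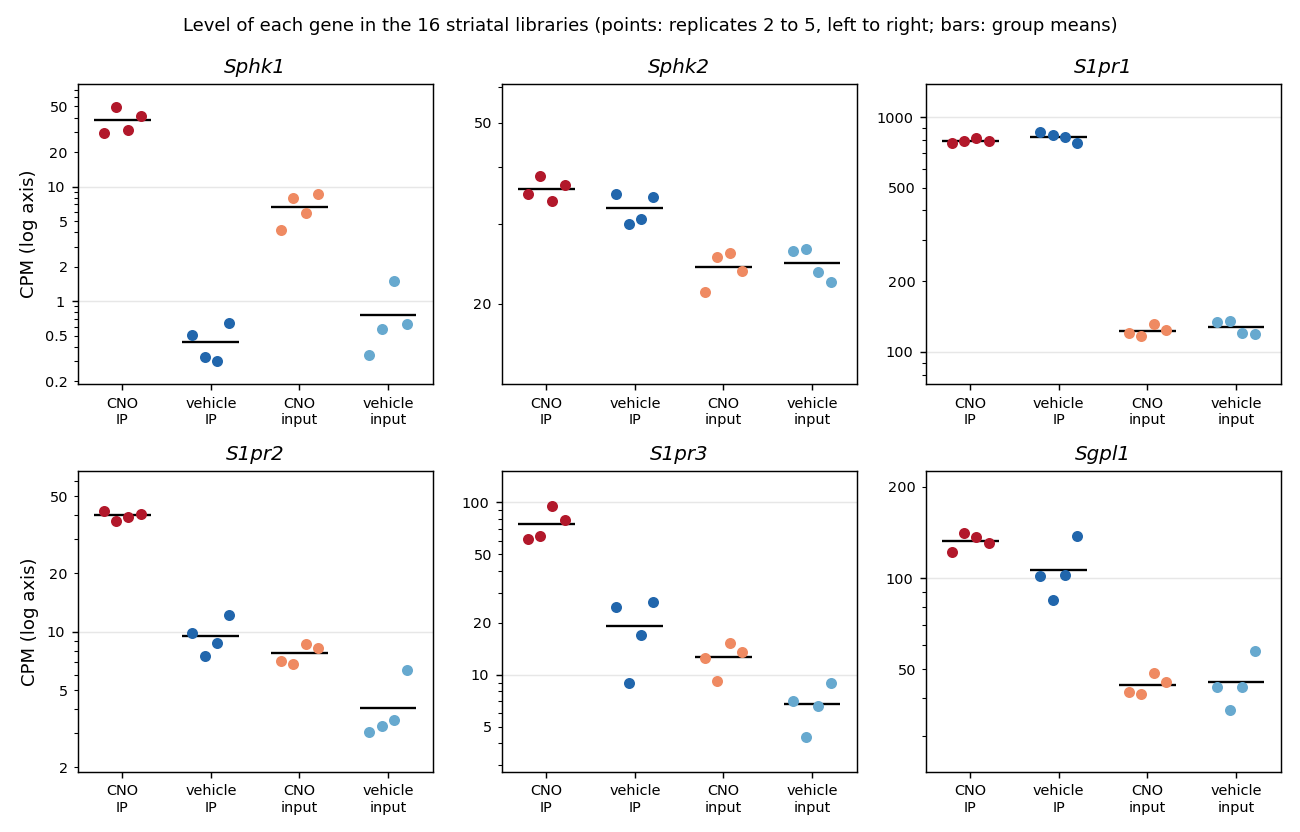
CPM (log axis) of each of the 6 genes in the 4 groups, IP on the left and input on the right, each with CNO before vehicle, with 1 point per library (replicates 2 to 5 from left to right) and a bar at the mean of the 4. Sphk1 lies at 29.3 to 49.5 CPM in CNO IP and at 0.301 to 0.644 CPM in vehicle IP, while S1pr1 and Sphk2 sit at like levels in CNO and vehicle libraries.

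Among the receptors, S1pr1 carried by far the most RNA, and its level was nearly the same in CNO and vehicle libraries. It had 778, 787, 818 and 788 CPM in CNO IP, against 867, 841, 823 and 772 CPM in vehicle IP. In input it had 121, 116, 131 and 124 CPM in CNO mice, against 134, 136, 121 and 119 CPM in vehicle mice. Both pairs of groups overlapped. The log2 difference was -0.06 in IP and -0.05 in input, where it did not pass (95% interval -0.19 to 0.09, adjusted p = 0.884, limma).

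S1pr2, a receptor that couples to several classes of G protein, was a minor transcript in vehicle IP. It had 42.1, 37.3, 39.0 and 40.6 CPM in CNO IP, against 9.88, 7.47, 8.72 and 12.1 CPM in vehicle IP. The 4 CNO libraries lay close together and all above the vehicle libraries, with a log2 difference of 2.08, a 4.22-fold ratio. In input it had 7.11, 6.85, 8.66 and 8.27 CPM in CNO mice, against 3.03, 3.28, 3.52 and 6.37 CPM in vehicle mice. The input groups did not overlap, but replicate 5 of vehicle input came close to the CNO libraries. The log2 difference in input was 0.99 (SE 0.22, a 1.99-fold ratio), and S1pr2 did not pass after adjustment (adjusted p = 0.0887, limma). Without vehicle input replicate 5 the difference was 1.23 and passed (adjusted p = 0.00122, limma). That was the only one of the 8 fits leaving out 1 library in which S1pr2 passed. Adjusted p ran up to 0.292 in the others.

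S1pr3, a receptor linked to reactive astrocytes in injury models, varied widely among the vehicle IP libraries. It had 61.1, 63.8, 95.1 and 79.0 CPM in CNO IP, against 24.7, 8.96, 16.9 and 26.5 CPM in vehicle IP. All CNO libraries stood above all vehicle libraries, with a log2 difference of 2.05, a 4.14-fold ratio. In input it had 12.4, 9.20, 15.3 and 13.5 CPM in CNO mice, against 7.07, 4.38, 6.63 and 9.0 CPM in vehicle mice. The highest vehicle library, replicate 5, lay just under the lowest CNO library, replicate 3. S1pr3 had a log2 difference of 0.92 in input (SE 0.23, a 1.89-fold ratio) and did not pass after adjustment (adjusted p = 0.147, limma). The 95% intervals in input, not adjusted for the number of genes, were 0.50 to 1.48 for S1pr2 and 0.41 to 1.43 for S1pr3.

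S1P receptors are also known from blood vessels, so vessel markers stand beside these values. The summed level of 8 endothelial markers was 16.6 to 17.1 CPM in CNO IP and 16.6 to 23.8 CPM in vehicle IP. In input the endothelial sum was 87.2 to 105 CPM in CNO mice and 112 to 126 CPM in vehicle mice. The endothelial ranges overlapped in IP but not in input. In input 1 of 8 endothelial markers, Cldn5, passed as lower in CNO, beside 0.183% of all genes. The median log2 difference of the 8 was -0.30 there (all genes -0.02). The summed level of 7 mural markers was 52.9 to 62.3 CPM in CNO IP and 83.9 to 105 CPM in vehicle IP. In input the mural sum was 104 to 120 CPM in CNO mice and 121 to 141 CPM in vehicle mice. Neither pair of mural ranges overlapped. Pdgfrb was the 1 mural marker of 7 that passed, lower in CNO in both IP and input. Of all genes, 7.08% were lower in IP and 0.183% in input. Pdgfrb had means of 25.3 CPM in CNO IP and 63.3 CPM in vehicle IP. It was also the 1 mural marker that was higher in vehicle IP than in vehicle input. Without Pdgfrb, a sum chosen after seeing the data, the other 6 mural markers gave 32.9 to 33.9 CPM in CNO IP and 32.0 to 37.8 CPM in vehicle IP, and 89.5 to 103 CPM in CNO input and 99.2 to 121 CPM in vehicle input, so both pairs of ranges overlapped. The part of vessel cells in the receptor values was not tested.

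Sgpl1, the lyase of the endoplasmic reticulum, had 122, 141, 137 and 130 CPM in CNO IP, against 102, 84.4, 102 and 138 CPM in vehicle IP. The groups overlapped through vehicle replicate 5, and the log2 difference was 0.34. In input it had 41.9, 41.4, 48.7 and 45.4 CPM in CNO mice, against 43.5, 36.6, 43.7 and 57.2 CPM in vehicle mice, again overlapping. The log2 difference in input was -0.01 (95% interval -0.29 to 0.26, adjusted p = 0.987, limma).

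In input, 1 of the 6 genes, Sphk1, thus passed as higher in CNO, beside 0.815% of the 15825 genes tested, and 0 passed as lower (0.183% of all genes). In either direction 158 genes, or 0.998%, passed there, a count that fell to 94 without vehicle input replicate 2, 95 without CNO input replicate 5 and 100 without vehicle input replicate 4. In IP 17.3% of 15602 genes passed, 10.2% as higher and 7.08% as lower, figures given only as the background of that comparison. There 2703 genes passed with all libraries and 1779 without vehicle IP replicate 2. With upper quartile scaling 39.3% of the genes that passed in IP were higher, against 59.2% with the deposited scaling.

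**Figure D2:**
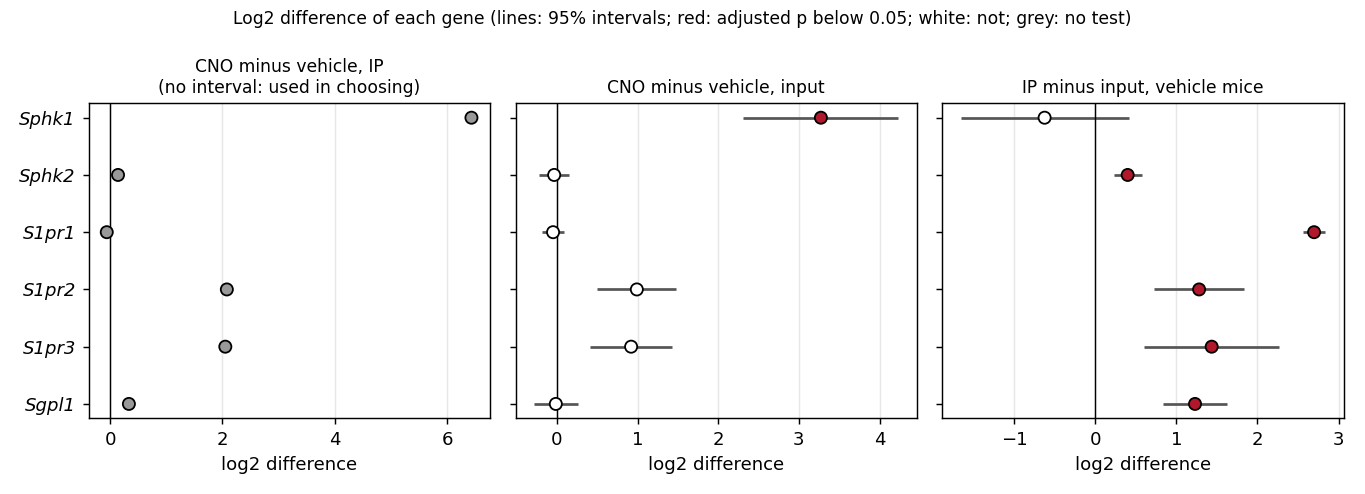
Log2 difference of each of the 6 genes for CNO minus vehicle in IP (grey, no test), CNO minus vehicle in input and IP minus input in vehicle mice (lines are 95% intervals from limma, red points passed at an adjusted p below 0.05). In input the point of Sphk1 stands at 3.27 and those of S1pr2 and S1pr3 near 1 without passing, while Sphk2, S1pr1 and Sgpl1 lie near 0.

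A further comparison sets vehicle IP beside vehicle input for these genes. It shares the vehicle IP libraries with the CNO comparison in IP. S1pr1 was 6.49-fold higher in vehicle IP than in vehicle input, at 826 ± 40.1 CPM in IP and 127 ± 8.87 CPM in input (SD, n = 4 each; log2 difference 2.70, SE 0.06, adjusted p = 1.84e-09, limma). That is close to the median of the 8 astrocyte markers, 2.96, and unlike the endothelial markers, all of which were lower in IP. S1pr3 (log2 difference 1.44, SE 0.36, adjusted p = 0.00641), S1pr2 (1.28, SE 0.24, adjusted p = 0.00112) and Sgpl1 (1.23, SE 0.17, adjusted p = 1.84e-04) were higher in IP by smaller amounts, all by limma. Sphk2 was 1.32-fold higher (0.40, SE 0.08, adjusted p = 9.29e-04, limma).

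Sphk1 was the exception. It averaged 0.445 ± 0.161 CPM in vehicle IP and 0.760 ± 0.509 CPM in vehicle input (SD, n = 4 each), and the groups overlapped. Its log2 difference was -0.62 and did not pass (95% interval -1.66 to 0.41, adjusted p = 0.241, limma). So 5 of the 6 genes were higher in IP, beside 37.7% of the 15872 genes tested, and 0 were lower, beside 37.2%. With upper quartile scaling the median over all genes moved by -0.15 here, less than each of these 5 differences. These fits did not pair the IP and input of a mouse. The mouse as a block changed no call among the 6 and lowered each SE, from 0.36 to 0.12 for S1pr3 and from 0.17 to 0.04 for Sgpl1.

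The same ratio in CNO mice is a description, since it rests on the CNO IP libraries. Sphk1 was 5.79-fold higher in CNO IP than in CNO input (log2 difference 2.53), S1pr3 5.93-fold (2.57), S1pr2 5.17-fold (2.37), S1pr1 6.44-fold (2.69), Sgpl1 2.99-fold (1.58) and Sphk2 1.49-fold (0.58). In CNO mice the IP to input ratios of Sphk1, S1pr2 and S1pr3 thus stood beside that of S1pr1, while in vehicle mice they lay below it.

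To compare levels between genes, CPM was divided by the exon length of each gene in kilobases, taken over all transcripts of the GENCODE annotation (the annotation used for counting is not given). On this scale S1pr1 stood at 260 ± 5.66 CPM per kb in CNO IP and 271 ± 13.2 in vehicle IP. S1pr3 stood at 16.8 ± 3.51 CPM per kb in CNO IP and 4.32 ± 1.80 in vehicle IP, and S1pr2 at 4.99 ± 0.256 and 1.20 ± 0.248 in the same order of groups. S1pr5, the receptor of oligodendrocytes, which is not among the 6, stood at 17.5 ± 2.13 CPM per kb in CNO IP and 24.9 ± 8.52 in vehicle IP (SD, n = 4 each for all). S1pr1 was first in every library, S1pr2 was below S1pr3 in every library, and S1pr3 and S1pr5 overlapped in CNO IP.

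S1pr1 made up 85.7 to 88.5% of the receptor level per length in CNO IP and 85.7 to 94.0% in vehicle IP, ranges that overlap. S1pr2 made up 1.56 to 1.83% in CNO IP and 0.319 to 0.514% in vehicle IP, and S1pr3 4.74 to 6.80% in CNO IP and 0.684 to 2.00% in vehicle IP. The summed receptor level was 300 ± 10.3 CPM per kb in CNO IP and 302 ± 9.17 in vehicle IP. The kinases differed more: Sphk1 made up 42.2, 53.1, 44.7 and 49.7% of the kinase level per length in CNO IP, against 1.25, 0.944, 0.844 and 1.61% in vehicle IP. In input Sphk1 made up 14.5 to 24.1% in CNO mice and 1.12 to 5.27% in vehicle mice. The kinase sum was 16.5 ± 2.41 CPM per kb in CNO IP and 7.89 ± 0.620 in vehicle IP (SD, n = 4 each).

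**Figure D3:**
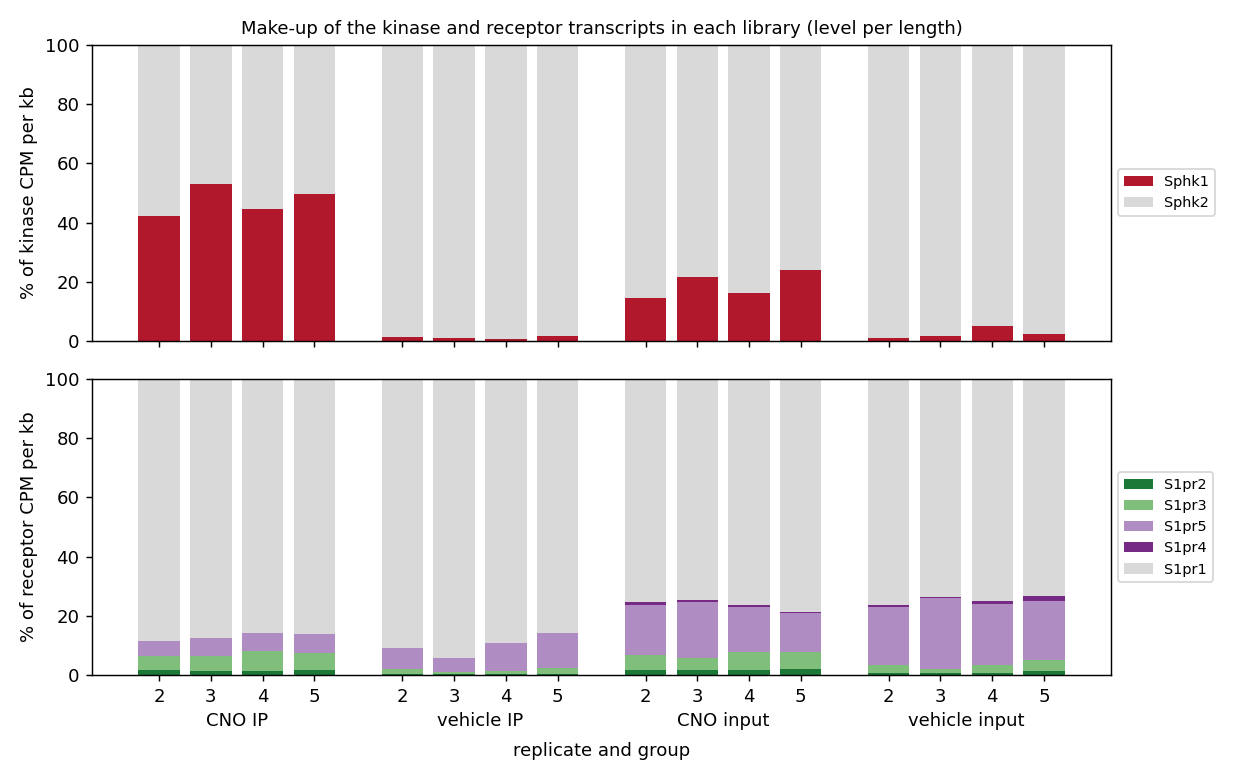
Share of each kinase (top) and each receptor (bottom) in the summed CPM per kb of that family, 1 bar per library, by replicate number, with IP before input and CNO before vehicle. Sphk1 takes 42.2 to 53.1% of the kinase bars in CNO IP and 0.844 to 1.61% in vehicle IP, while S1pr1 takes at least 85.7% of every receptor bar in IP.

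The rest of the pathway was read from 4 lists of 61 genes, of which 58 were measured (not Acer1, Cers1 and Apom). These lists too were chosen with earlier results of these data known, so their p-values are not those of an unselected list. In IP, 3 of 57 tested genes rose with CNO and 6 fell (15.8%, beside 17.3% of all genes; median log2 difference -0.04, all genes -0.01). S1pr4, a receptor of blood cells, was below the filter there, with 0 to 11 reads per IP library. In input 1 of 57 passed (1.75%, beside 0.998%; median -0.03, all genes -0.02), with Sptlc3 below the filter. Both shares were near the background.

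Mfsd2a, a lysophospholipid transporter best known from the blood-brain barrier, rose in both kinds of RNA. It averaged 181 ± 39.2 CPM in CNO IP and 67.4 ± 11.4 CPM in vehicle IP (SD, n = 4 each; log2 difference 1.42, SE 0.17, adjusted p = 5.62e-04, limma). In input it averaged 30.1 ± 4.09 CPM in CNO mice and 16.6 ± 1.71 CPM in vehicle mice (log2 difference 0.85, SE 0.11, adjusted p = 0.00386, limma). In vehicle mice Mfsd2a was 4.02-fold higher in IP than in input (log2 difference 2.01, SE 0.13, adjusted p = 7.46e-07, limma). The cells in which it rose were not tested. Its list, of export, carriage and other receptors, had 1 higher of 6 tested in IP and 1 of 7 in input. Of all genes, 10.2% were higher in IP and 0.815% in input. Spns2, the S1P exporter, had a log2 difference of 0.11 in IP and 0.07 in input and did not pass in either.

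Of the 10 measured genes of sphingosine and S1P turnover, 1 passed in IP, as lower (beside 7.08% of all genes). It was Plpp3, listed under its older symbol Ppap2b, an ecto-phosphatase that removes the phosphate of S1P and related lipids. It fell to 756 ± 29.8 CPM in CNO IP, against 1091 ± 108 CPM in vehicle IP (SD, n = 4 each; log2 difference -0.52, SE 0.08, adjusted p = 0.00151, limma). In input it averaged 115 CPM in CNO mice and 150 CPM in vehicle mice and did not pass (-0.39, adjusted p = 0.123, limma). It is a transcript that vehicle IP held at far more than input, by a log2 difference of 2.86. The ceramidases Asah1, Asah2, Acer2 and Acer3, which supply sphingosine, and the S1P phosphatases Sgpp1 and Sgpp2 were among the 9 that did not pass.

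Of 27 ceramide and sphingolipid enzymes, 2 rose and 3 fell in IP (18.5%, beside 17.3% of all genes). Sgms2, a sphingomyelin synthase, averaged 9.77 ± 0.753 CPM in CNO IP and 4.54 ± 0.754 CPM in vehicle IP (log2 difference 1.12, SE 0.13, adjusted p = 3.99e-04, limma). Cerk, the kinase of ceramide, averaged 135 ± 3.84 CPM in CNO IP and 82.2 ± 5.80 CPM in vehicle IP (SD, n = 4 each; 0.71, SE 0.05, adjusted p = 2.51e-05, limma). The decreases were small, -0.20 for the ceramide synthase Cers4, -0.18 for Galc, which degrades galactosylceramide, and -0.15 for Kdsr, an early enzyme of sphingoid base synthesis. Leaving out 1 library ended the calls of Galc and Kdsr for 7 of the 8 libraries each (adjusted p up to 0.0989 for Galc and up to 0.117 for Kdsr). Kdsr lies outside the naming rule and was added after its value was seen.

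Of 14 G proteins and effectors of S1P receptors, 2 fell in IP (14.3%, beside 17.3% of all genes, 7.08% as lower). In input 0 passed, beside 0.998% of all genes. Gna13, a G protein alpha subunit, averaged 475 ± 47.4 CPM in CNO IP and 614 ± 40.6 CPM in vehicle IP (SD, n = 4 each; log2 difference -0.37, SE 0.08, adjusted p = 0.0111, limma), a call lost with the replicate number as a block (adjusted p = 0.0572). Gnai2, a Gi alpha subunit, differed by -0.22 (adjusted p = 0.0429, limma), and leaving out 1 library ended that call for 7 of the 8 libraries (adjusted p up to 0.127). In vehicle mice this list was higher in IP than in input for 11 of 14 and lower for 1, beside 37.7% and 37.2% of all genes, with Gna13 (2.27), Gnai2 (1.39) and Arhgef12 (1.24), a guanine nucleotide exchange factor, in front. Over the 4 lists, 35 of 58 genes were higher in vehicle IP and 13 lower (82.8%, beside 74.9% of all genes; median log2 difference 0.39, all genes 0.01).

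**Figure D4:**
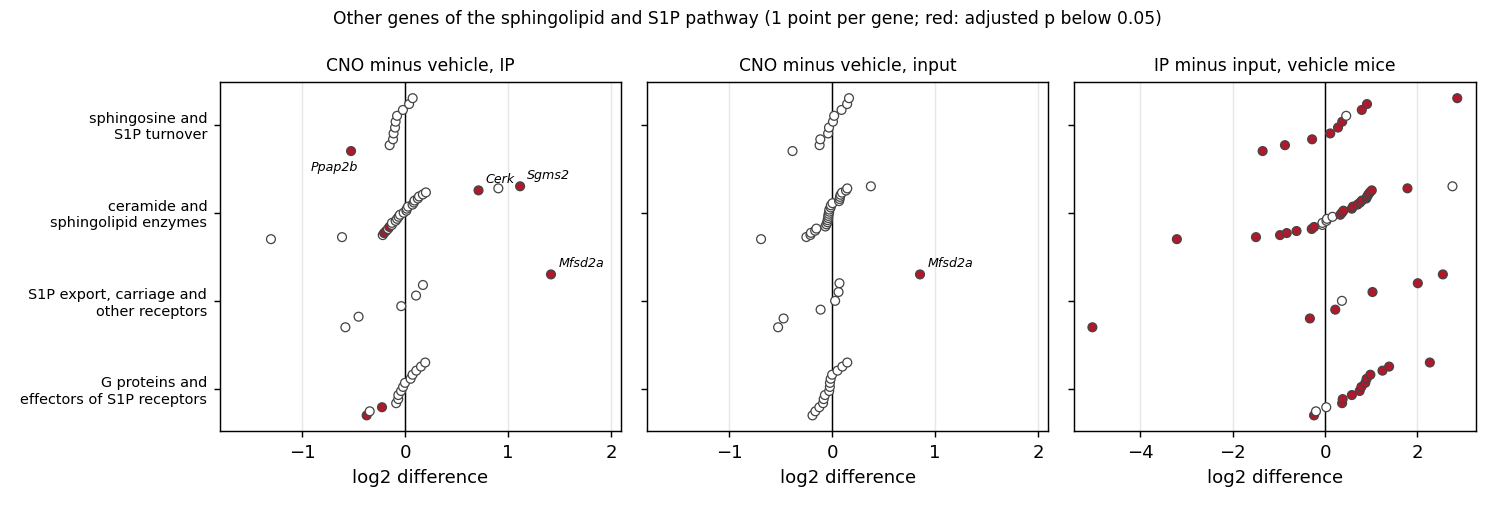
Log2 difference of every tested gene of the 4 pathway lists, for CNO minus vehicle in IP, CNO minus vehicle in input and IP minus input in vehicle mice (1 point per gene, red where the adjusted p was below 0.05). Mfsd2a stands at the right in both CNO panels, Sgms2 and Cerk in the IP panel, and Ppap2b to the left of 0 there.

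Genes with the most similar pattern were found by Pearson correlation of log2 CPM over the 16 libraries among 14148 other genes with a proper name. All genes share these libraries and their split by IP and input, so the values are given as a description. Nearest to Sphk1 were the cytokine gene Il11 (r = 0.981), the shelterin gene Tinf2 (0.979) and Trmt61b, a tRNA methyltransferase gene (0.974). Nearest to S1pr2 were Ehd2 (0.987), a membrane-trafficking ATPase gene, Fam107b (0.985) and the tubulin gene Tubb6 (0.983). Nearest to S1pr3 were the annexin gene Anxa2 (0.977), Jun (0.974), which encodes an AP-1 subunit, and Fam107b again (0.973). S1pr1 was nearest to Cpe, which encodes carboxypeptidase E (r = 0.999), and to the lipid enzyme gene Acsbg1 (0.998). Sphk2 was nearest to Sar1a (0.975), Kdm4a (0.971) and Rtkn (0.965), and Sgpl1 to the integrin gene Itgb1 (0.995), Nek6 (0.994) and Plod3 (0.993).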

How the data were processed

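The submitters' processing notes name STAR, HTSeq, limma and bcl2fastq 2.17, and the build mm10. The deposited values are log2 CPM made by the authors, on library sizes that differed from the read totals by factors of 0.880 to 1.14. When the worth of 1 read was solved for, with a prior count of 0.25, 100% of the values came out as whole reads (tolerance 0.01 read). A gene without reads stands at -7.54.

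The 2 groups of a comparison were fitted on their deposited log2 values with limma 3.58.1 (R 4.3.3, eBayes with trend and robust settings). P-values were adjusted by Benjamini-Hochberg over every gene tested, and 0.05 was the threshold. Genes needed at least 15 reads in all and the CPM of 10 reads in the median library in at least 4 libraries. The fits were checked on simulated reads. The 6 genes, the 4 pathway lists and the marker lists were chosen with earlier results of these data known. Named from each list were up to 4 genes that passed, by size of difference, with the 3 genes most like each of the 6 (1 of those for S1pr1 is not reported here). For IP against input, libraries of 1 mouse code are pairs: their deviations from the group means correlated at 0.22 to 0.58. Alternatives were upper quartile scaling, no filter, log2(CPM + 1), limma-voom on the recovered reads, blocks and leaving out each library.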

Additional observations from a re-analysis of the deposited data

How the results depend on the processing

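In vehicle mice the IP and input differences of the 6 genes kept their direction and their side of the threshold under all 13 alternatives. For CNO against vehicle in input, Sphk1 passed under all 13 (adjusted p up to 0.0306 by limma, log2 difference 2.12 to 3.67). S1pr2 there ranged from 0.87 to 1.23 over single libraries left out (adjusted p 0.00122 to 0.292, limma). Sphk2 (-0.079 to 0.023) and Sgpl1 (-0.11 to 0.11) changed sign between such fits around 0. With log2(CPM + 1) the IP difference of Sphk1 was 4.72. With upper quartile scaling the IP to input differences in CNO mice were 0.36 for Sphk2, 2.47 for S1pr1, 2.15 for S1pr2 and 1.37 for Sgpl1. The number of genes that passed ranged from 94 to 182 in input and from 1779 to 2952 in IP over single libraries left out. It was lowest in input without vehicle input replicate 2 and lowest in IP without vehicle IP replicate 2. Between CNO and vehicle the libraries share only a number (correlations of deviations from -0.37 to 0.22). With that number as a block, 102 genes passed in input, S1pr3 passed there (0.92, adjusted p = 0.0344) and in IP 1953 genes passed, against 2703 without it, with the calls of Gna13 (0.0572), Galc (0.0593), Gnai2 (0.113) and Kdsr (0.130) lost. The cause of these shifts was not tested. Depth limits Sphk1 most, with 15 to 64 reads in vehicle input.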

Other observations

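For some of the 6 genes, the same mice of a group stood highest or lowest in both kinds of RNA. Among vehicle mice, replicate 5 had the highest and replicate 3 the lowest S1pr3 in IP (26.5 and 8.96 CPM) and in input (9.0 and 4.38 CPM). Sgpl1 showed the same, with 138 and 84.4 CPM in IP and 57.2 and 36.6 CPM in input. S1pr2 was also highest in replicate 5 in both (12.1 CPM in IP, 6.37 CPM in input). Among CNO mice, replicate 4 had the highest S1pr3 in IP and in input (95.1 and 15.3 CPM). Other genes did not share an order: among vehicle mice, replicate 3 had the lowest Sphk2 in IP (29.9 CPM) and the highest in input (26.4 CPM), and replicate 4 the lowest Sphk1 in IP (0.301 CPM) and the highest in input (1.5 CPM). Among CNO mice, replicate 3 had the highest Sgpl1 in IP (141 CPM) and the lowest in input (41.4 CPM). These orders were noticed after the values were seen, and none was tested.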
